A study of Homo sapiens with 6 samples.

Results

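The genes examined here code for the contractile actin and myosin II machinery of the cell, for the proteins that anchor it at focal adhesions, and for SRF and the YAP-TEAD complex, transcriptional regulators tied to that machinery. They were chosen by symbol, as a list of 39 genes, of 24462 symbols in the count files, and all 39 were found, each on a row of its own. They were measured by mRNA-seq in PC3 cells, a human line grown out of a skeletal metastasis of prostate carcinoma. Of the 6 libraries, 3 came from cells given a non-targeting siRNA (si-Control) and 3 from cells given an siRNA against CITED2, a coregulator that binds p300 and CBP (si-CITED2). The siRNA was used at 80 nM for 72 h in both groups, no other agent or allele distinguished them, and the study's methods list 1 sequence for the control and 1 for CITED2. With 1 sequence, an effect through CITED2 and an effect of that sequence on other transcripts cannot be told apart.

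The mRNA of the targeted gene was not lower in the si-CITED2 libraries. CITED2 was at 36.5, 37.9 and 32.8 CPM (counts scaled to the TMM-adjusted library size) in si-Control replicates 1 to 3 and at 46.0, 39.1 and 41.8 CPM in si-CITED2 replicates 1 to 3. Its log2 fold change was 0.24 ± 0.074 (SE, n = 3 per group, adjusted p = 0.0363, edgeR quasi-likelihood test over 16314 genes), and leaving out 1 library at a time kept the call in 2 of 6 fits. It was lost without si-Control replicate 1 or 3 (0.25 and 0.18) and without si-CITED2 replicate 1 or 3 (0.17 and 0.25). The study followed the knockdown by immunoblot, which is not analysed here. The group names are therefore the labels of the libraries, and every direction below is that of the libraries labelled si-CITED2 against those labelled si-Control. Total counts ranged from 19508925 to 28936374 per library, so that 3 counts, taken as the limit of detection, were worth 0.104 to 0.154 CPM (counting error only). Pearson correlations of log2 CPM were 0.9955 to 0.9966 within groups and 0.9903 to 0.9917 between them, and no library stood apart from its group.

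As background, actin filaments are crosslinked by α-actinins and filamins, coated by tropomyosins, caldesmon and calponins, and pulled by non-muscle myosin II, whose motor is switched on when myosin light chain kinase or ROCK phosphorylates the regulatory light chain. Tension is passed to the matrix at focal adhesions, where talin, vinculin, paxillin and zyxin link integrins to actin. The same machinery feeds back on transcription. Monomeric actin holds the MRTF coactivators in the cytoplasm, so that filament assembly frees them to join SRF on CArG boxes, while tension and low Hippo kinase activity let YAP and its paralogue TAZ (encoded by WWTR1) enter the nucleus and join TEAD factors. Many contractile genes are therefore both parts of the apparatus and SRF targets, and migrating or mesenchymal carcinoma cells are known for high levels of several of them.

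The binding motifs of these regulators were looked up in the proximal promoters first, as a feature that does not use the expression values. The list was drawn up around SRF and YAP-TEAD, with earlier results of these data known. Its motif shares, and the calls of the genes with a motif, are therefore not independent of how the genes were chosen. RefSeq (GRCh38.p14) start-site windows of 250 bases upstream and 50 downstream were held for 34 of the 39 genes, 61 windows in all; TAGLN, ACTB, MYL9, TEAD1 and TEAD4 had no entry. A CArG box lay in 10 of the 61 windows (16.4%), against 1.29% of all 35116 windows, and these belonged to 8 of the 34 genes (23.5%, against 1.60% of all symbols). The 8 genes were ACTG1, ACTN1, CNN2, FHL2, FLNA, MYLK, SRF and TPM4. The stretches below run 5′ to 3′ on the strand of the gene, lie upstream of the RefSeq start of their window, and show the CArG box, the letters that SRF is known to read, in capitals for 7 of the 8 genes. Those of ACTG1 and MYLK are shorter because exons of other GENCODE 29 transcripts reach them. The MYLK window is that of a start site inside the gene (chr3:123610049-123884331), nearer to its 3′ end than to its 5′ end. The counts are by gene and do not separate transcripts from different start sites.
ACTG1 (chr17:81512874-81512903, minus strand): ggaaagatcgCCATATATGGacatgttctg
FLNA (chrX:154374699-154374748, minus strand): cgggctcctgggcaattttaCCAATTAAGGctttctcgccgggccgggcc
ACTN1 (chr14:68977708-68977757, minus strand): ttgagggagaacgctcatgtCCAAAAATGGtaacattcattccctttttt
TPM4 (chr19:16067345-16067394, plus strand): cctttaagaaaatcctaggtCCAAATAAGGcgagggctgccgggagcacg
CNN2 (chr19:1026499-1026548, plus strand): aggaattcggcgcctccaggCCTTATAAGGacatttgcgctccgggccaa
MYLK (chr3:123620623-123620652, minus strand): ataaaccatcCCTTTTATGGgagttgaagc
SRF (chr6:43171219-43171268, plus strand): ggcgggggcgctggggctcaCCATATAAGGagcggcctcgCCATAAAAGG
In SRF the pair of boxes began 30 and 10 bases before the start site. All 8 of these genes passed the expression test described below, 7 with higher and 1 (MYLK) with lower counts in si-CITED2.

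The MCAT element bound by TEAD factors, CATTCC on either strand (GGAATG on the other), is short and much more common. It was found in 18 of the 61 windows (29.5%), against 14.0% of all windows, and in 17 of the 34 genes (50%, against 16.7% of all symbols). ANKRD1, a classical YAP target that encodes a nuclear and sarcomeric ankyrin repeat protein, carried it 220 and 128 bases before the start site. The farther copy is shown in capitals.
ANKRD1 (chr10:90921282-90921327, minus strand): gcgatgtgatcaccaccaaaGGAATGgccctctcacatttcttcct
Of the other genes with the element in a window, ACTN1, CALD1, FHL2, LIMA1, MYH9, MYL12A, PXN and VCL were called higher in the test below. MYLK was called lower. YAP1 itself, the YAP targets AMOTL2 and LATS2, and ACTA2, CNN3, FLNC and MYH10 were not called. Among all tested genes with a window, 37 of the 173 with a CArG box (21.4%) were called higher and 14 (8.09%) lower, against 9.83% and 8.71% of 11455. With the members left out the counts were 30 of 165 (18.2%) and 13 (7.88%). For CATTCC the shares were 10.7% higher and 8.51% lower of 1704 genes without the members. These shares describe which letters lie in the windows and were not tested. Occupancy of the sites was not measured.

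Of the 39 genes, 38 passed the filter on low counts and 23 of these were higher in si-CITED2 at an adjusted p under 0.05, 2 were lower and 13 were not called. Over all 16314 genes tested, 9.36% were called higher and 8.09% lower. The members are abundant genes, and 30 of the 38 had a mean log2 CPM of at least 6. Of these 30, 19 were higher and 2 lower, while 13.8% and 14.8% of all 3717 genes at that level were called higher and lower. The median log2 fold change was 0.32 for the 38 members, -0.0014 for all genes tested and -0.0058 for all genes at a mean log2 CPM of at least 6. Values did not overlap between groups, with si-CITED2 above, in 23 members, and with si-CITED2 below in 4 (MYH10, MYLK, WWTR1 and TEAD4). Over all genes tested these shares were 16.4% and 16.1%.

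Most of the differences were modest. The 23 members called higher had a median log2 fold change of 0.57, compared with 0.40 for all 1527 genes called higher, and 11 of them reached a 1.5-fold change (32.0% of all genes called higher did). TAGLN ranked 25th and TPM1 95th among the 1527 by log2 fold change. Summed over the 39 genes, the level was 21329 ± 359 CPM (SD, n = 3) in si-Control and 28398 ± 318 CPM in si-CITED2, a ratio of 1.33. In bulk RNA, more transcript per cell and more cells with a high level cannot be told apart, and this holds for each value below.

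**Figure D1:**
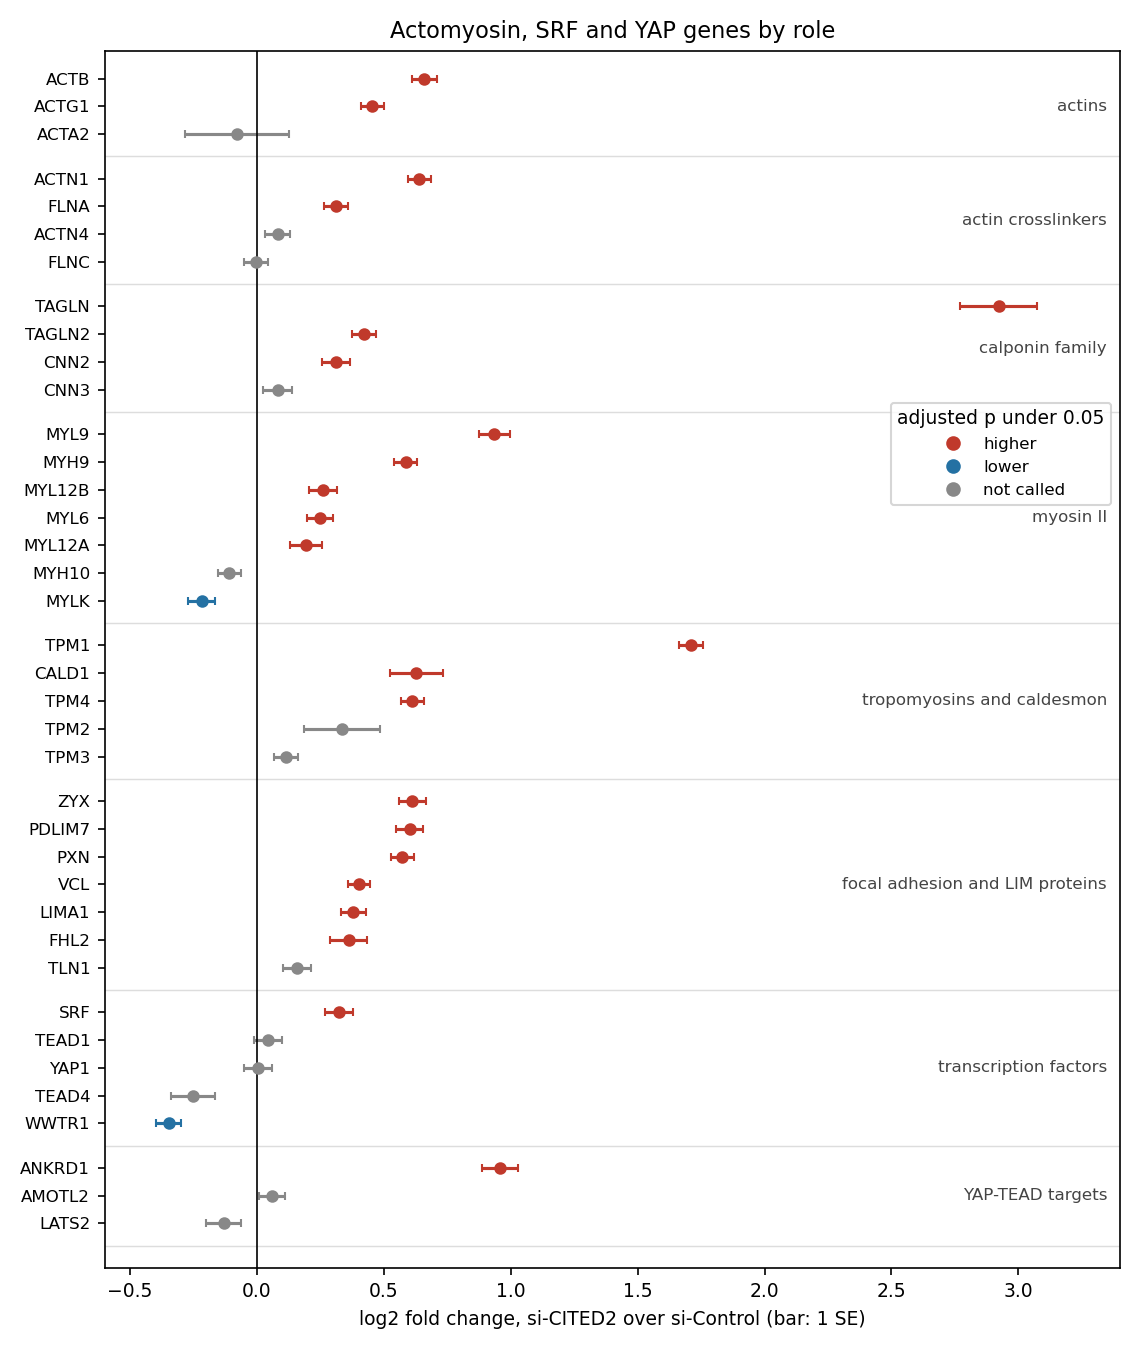
Log2 fold change (x axis, si-CITED2 over si-Control, bar 1 SE, 3 libraries per group) of the 38 members that passed the filter, grouped by role; red, blue and grey mark higher, lower and not called at an adjusted p under 0.05. TAGLN (2.92) and TPM1 (1.71) stand to the right of the rest, and WWTR1 (-0.35) and MYLK (-0.22) are the genes called lower.

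Both cytoplasmic actins rose. ACTB, which encodes β-actin and was the most abundant member per length, was at 4279, 3848 and 3822 CPM in si-Control and 6463, 6197 and 6207 CPM in si-CITED2. The lowest si-CITED2 library exceeded the highest si-Control library by a wide margin (log2 fold change 0.66 ± 0.050, adjusted p = 6.39e-08). ACTG1, which encodes γ-actin, was at 2626, 2558 and 2683 CPM and 3743, 3523 and 3507 CPM (log2 fold change 0.45 ± 0.045, adjusted p = 1.79e-06). ACTA2, the α-actin of smooth muscle and myofibroblasts, was almost silent at 3.21, 2.12 and 2.50 CPM against 2.27, 2.56 and 2.56 CPM. Its groups overlapped, and the 95% interval of its log2 fold change, -0.51 to 0.35, left room for change in either direction. The coding regions of actin genes are close to identical and the handling of reads that fit several of them is not given in the sources used here, so the split of counts between ACTB and ACTG1 carries that uncertainty. ACTA2 also shares 38.3% of its exon bases with ACTA2-AS1 on the other strand.

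Of each pair of crosslinker paralogues, 1 gene was called higher. ACTN1, the α-actinin of stress fibres and adhesions, rose from 680.3 ± 18.0 CPM to 1059.9 ± 18.6 CPM (SD, n = 3 for these and the following means), a log2 fold change of 0.64 ± 0.045, adjusted p = 2.52e-08. ACTN4, its paralogue, was at 949, 887 and 905 CPM in si-Control and 1023, 932 and 947 CPM in si-CITED2. The groups overlapped and the test was not passed (log2 fold change 0.082 ± 0.050, adjusted p = 0.305, 95% interval -0.023 to 0.19). FLNA, the filamin that crosslinks cortical actin, was higher in every si-CITED2 library, at 1215, 1316 and 1313 CPM against 1622, 1583 and 1566 CPM (log2 fold change 0.31 ± 0.047, adjusted p = 1.56e-04). FLNC, the filamin best known from muscle, stood at 489.7 ± 15.4 CPM and 489 ± 18.5 CPM, and its 95% interval of -0.11 to 0.099 lies below that of FLNA, 0.21 to 0.41.

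The largest difference of the list was in the calponin family. TAGLN (chr11:117199321-117204782, plus strand, GENCODE 29, GRCh38) encodes transgelin, an actin-bundling protein of smooth muscle and a textbook SRF target. Its counts were 36, 58 and 39 in the si-Control libraries and 266, 312 and 295 in the si-CITED2 libraries, or 1.36, 1.98 and 1.95 CPM against 13.7, 12.7 and 13.7 CPM. All 3 si-CITED2 libraries were thus far above all 3 si-Control libraries. The level rose 7.58-fold (log2 fold change 2.92 ± 0.15, adjusted p = 5.42e-10, 95% interval 2.60 to 3.24). It remained low in absolute terms: per kilobase of exon it went from 0.734 to 5.57 CPM, against 379.9 to 509 CPM for its paralogue TAGLN2. Of its exon bases, 18.4% lie opposite PCSK7, and whether reads were counted by strand is not given in the sources used here. PCSK7 was at 29.7 ± 1.75 CPM and 30.0 ± 0.772 CPM, with a log2 fold change of 0.015 (adjusted p = 0.918).

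TAGLN2, the transgelin of non-muscle cells, rose from 739 ± 33.4 CPM to 990.0 ± 11.7 CPM (log2 fold change 0.42 ± 0.047, adjusted p = 6.47e-06). CNN2, the calponin of non-muscle cells, was at 216, 206 and 199 CPM in si-Control and 276, 251 and 244 CPM in si-CITED2. Its lowest si-CITED2 value was above its highest si-Control value, and the log2 fold change was 0.31 ± 0.055, adjusted p = 7.38e-04. CNN3, the acidic calponin, overlapped between the groups, at 130.4, 127 and 117 CPM and 123, 139 and 135 CPM (log2 fold change 0.082 ± 0.058, adjusted p = 0.397). CNN1, the calponin of differentiated smooth muscle, had 0 counts in each si-Control library and 0, 1 and 2 counts in the si-CITED2 libraries. It was under the limit of detection in all 6 libraries, so no fold is given.

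Among the myosin II genes, 5 of 7 rose and 1 fell. MYL9 (chr20:36541484-36551447, plus strand), a regulatory light chain that is rich in smooth muscle, was at 131, 115 and 109 CPM in si-Control and 222, 233 and 225 CPM in si-CITED2. Every si-CITED2 library was well above every si-Control library (1.91-fold, log2 fold change 0.93 ± 0.061, adjusted p = 1.08e-08). MYH9, the heavy chain of non-muscle myosin IIA, was at 1753, 1841 and 1867 CPM and 2798, 2726 and 2669.6 CPM (log2 fold change 0.59 ± 0.045, adjusted p = 7.89e-08). The heavy chain of myosin IIB, MYH10, went the other way in its values, at 454, 457 and 473 CPM against 426, 419 and 438 CPM. Its groups did not overlap, but the difference missed the threshold (log2 fold change -0.11 ± 0.046, adjusted p = 0.116). The essential light chain MYL6 rose from 736 ± 48.3 CPM to 874 ± 19.5 CPM (log2 fold change 0.25 ± 0.052, adjusted p = 0.00266).

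The near-identical regulatory light chain genes MYL12A and MYL12B, which lie side by side on chromosome 18, both passed the test. MYL12B was at 690.4, 656 and 642 CPM in si-Control and 732, 810.2 and 839 CPM in si-CITED2 (log2 fold change 0.26 ± 0.054, adjusted p = 0.00275), without overlap. MYL12A was at 669, 603 and 597 CPM and 647, 726 and 764 CPM, with si-CITED2 replicate 1 below si-Control replicate 1. Its call was the weakest of the 23 (log2 fold change 0.19 ± 0.062, adjusted p = 0.0404) and held in 2 of the 6 fits that left out a library. It was lost without replicate 2 or 3 of either group, where the log2 fold change was 0.14 to 0.18. MYLK, the kinase that phosphorylates the regulatory light chains, fell: it was at 71.8, 70.5 and 74.8 CPM in si-Control and 62.4, 62.4 and 61.7 CPM in si-CITED2. The si-CITED2 libraries lay close together below the lowest si-Control library (log2 fold change -0.22 ± 0.054, adjusted p = 0.00895). MYLK thus differed in direction from the light chains. It also differed from the other genes with a CArG box, but its box lies before a start site inside the gene. The gene counts do not show which transcripts of MYLK fell.

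TPM1 (chr15:63042632-63071915, plus strand) gave the second largest difference and the smallest adjusted p of the list. It encodes a tropomyosin that coats stress fibre actin and gates access of myosin. Its level was 141, 141 and 136 CPM in si-Control and 451, 465 and 453 CPM in si-CITED2. The SD was 2.88 CPM in si-Control and 7.67 CPM in si-CITED2, against a 3.27-fold rise (log2 fold change 1.71 ± 0.047, adjusted p = 1.49e-13, 95% interval 1.61 to 1.81). An antisense gene, TPM1-AS, lies opposite 23.5% of its exon bases and is not analysed here. TPM4, a further non-muscle tropomyosin, rose from 634 ± 11.2 CPM to 968 ± 20.9 CPM (log2 fold change 0.61 ± 0.045, adjusted p = 4.07e-08).

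The other tropomyosins were not called. TPM3, by far the most abundant of the family, was at 2363, 2223 and 2219 CPM in si-Control and 2353, 2495 and 2523 CPM in si-CITED2. The groups overlapped at si-CITED2 replicate 1 (log2 fold change 0.12 ± 0.047, adjusted p = 0.110), and TPM3 passed the test without si-Control replicate 1 (0.15) or si-CITED2 replicate 1 (0.14). TPM2, a β-tropomyosin rich in muscle, was rare, at 4.68, 5.67 and 5.00 CPM and 6.44, 7.50 and 5.40 CPM (log2 fold change 0.33 ± 0.15, adjusted p = 0.149, 95% interval 0.016 to 0.65). CALD1, which encodes caldesmon, a tropomyosin-associated inhibitor of actomyosin, was at 11.1, 10.5 and 13.7 CPM in si-Control and 18.4, 18.1 and 17.6 CPM in si-CITED2. It rose without overlap between the groups (log2 fold change 0.63 ± 0.10, adjusted p = 4.01e-04).

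The focal adhesion and LIM proteins lay on the same side: in all 7 genes every si-CITED2 value lay above every si-Control value, and 6 of 7 were called higher. ZYX, zyxin, which is recruited to strained stress fibres, was at 139.8, 141 and 135 CPM in si-Control and 225, 210.0 and 202 CPM in si-CITED2 (log2 fold change 0.61 ± 0.052, adjusted p = 2.49e-07). PDLIM7, a PDZ and LIM scaffold on actin, rose from 101 ± 1.13 CPM to 153 ± 8.37 CPM (log2 fold change 0.60 ± 0.052, adjusted p = 3.47e-07). PXN, paxillin, an adaptor at adhesions, was at 265, 259 and 257 CPM and 388, 389 and 385 CPM, with little spread in either group (log2 fold change 0.57 ± 0.045, adjusted p = 9.00e-08). PXN-AS1, which lies opposite 7.52% of the exon bases of PXN, also rose (log2 fold change 0.54), and without strand the reads of both genes cannot be told apart. Genes on the other strand also cover 16.6% of the exon bases of VCL, 19.3% of TPM4, 15.1% of CNN2, 12.6% of ACTN4, 11.7% of WWTR1 and 11.2% of YAP1. Of these partners AP3M1 (VCL), CAPN12 (ACTN4) and WWTR1-AS1 (WWTR1) were measured and not called.

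VCL, vinculin, which reinforces the link from talin to actin, was at 360.3, 362 and 373 CPM in si-Control and 488, 481 and 478 CPM in si-CITED2 (log2 fold change 0.40 ± 0.045, adjusted p = 6.25e-06). LIMA1, a LIM protein that bundles and stabilises filaments, rose from 179 ± 3.93 CPM to 233 ± 8.30 CPM (log2 fold change 0.38 ± 0.048, adjusted p = 2.74e-05). FHL2, a LIM-only cofactor of several transcription factors including SRF, was less abundant and rose from 32.4 ± 2.75 CPM to 41.5 ± 1.79 CPM (log2 fold change 0.36 ± 0.072, adjusted p = 0.00194). TLN1, talin, which activates integrins, was at 743, 790.1 and 816 CPM and 940.0, 857 and 825 CPM. Although these did not overlap, TLN1 was just short of the threshold (log2 fold change 0.16 ± 0.055, adjusted p = 0.0586). It passed with DESeq2 (adjusted p = 0.0386), in edgeR without the filter on low counts (adjusted p = 0.0360) and without si-CITED2 replicate 3 (0.20). Over all alternatives its adjusted p ranged from 0.0360 to 0.224.

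The regulators of transcription themselves differed little, with the exception of SRF and WWTR1. SRF (chr6:43171299-43181507, plus strand) was at 58.4, 55.6 and 55.8 CPM in si-Control and 72.5, 70.6 and 69.7 CPM in si-CITED2. Its groups were clearly apart although the rise was only 1.25-fold (log2 fold change 0.32 ± 0.054, adjusted p = 4.26e-04). WWTR1 (chr3:149517235-149736714, minus strand), the gene of TAZ, fell from 166, 168 and 177 CPM to 137, 129.8 and 135 CPM. This was the largest decrease of the list (log2 fold change -0.35 ± 0.049, adjusted p = 8.38e-05). YAP1 was at 154, 169 and 167 CPM and 155, 167 and 169.9 CPM, with a 95% interval of -0.11 to 0.12 on the log2 scale, above that of WWTR1, -0.45 to -0.24. The DNA-binding partners were not called: TEAD1 was at 205 ± 14.2 CPM and 211 ± 7.41 CPM (log2 fold change 0.044 ± 0.055, adjusted p = 0.667), and TEAD4 was at 19.3, 18.6 and 16.9 CPM and 15.5, 14.8 and 15.8 CPM. The TEAD4 groups did not overlap, with the si-CITED2 values lower, and it came close to the threshold (log2 fold change -0.25 ± 0.087, adjusted p = 0.0564). It passed without the TMM factor (adjusted p = 0.0409, range over all alternatives 0.0391 to 0.177) and without si-Control replicate 3 (-0.30).

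Of the 3 YAP-TEAD targets among the members, ANKRD1 alone passed the test. ANKRD1 was at 51.3, 42.8 and 46.5 CPM in si-Control and 84.5, 90.7 and 97.3 CPM in si-CITED2 (1.94-fold, log2 fold change 0.96 ± 0.071, adjusted p = 5.17e-08). The lowest si-CITED2 library was far above the highest si-Control library. AMOTL2, an angiomotin that retains YAP outside the nucleus and is itself a YAP target, was at 156, 167 and 175 CPM and 169.6, 173 and 174 CPM, with overlap (log2 fold change 0.058 ± 0.052, adjusted p = 0.515). LATS2, the Hippo kinase that YAP induces in feedback, was at 40.6, 47.8 and 44.8 CPM and 39.4, 41.8 and 40.3 CPM, also with overlap (log2 fold change -0.13 ± 0.069, adjusted p = 0.222). The 95% interval of AMOTL2, -0.051 to 0.17, and that of LATS2, -0.28 to 0.014, both lie outside the interval of ANKRD1, 0.81 to 1.11.

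**Figure D2:**
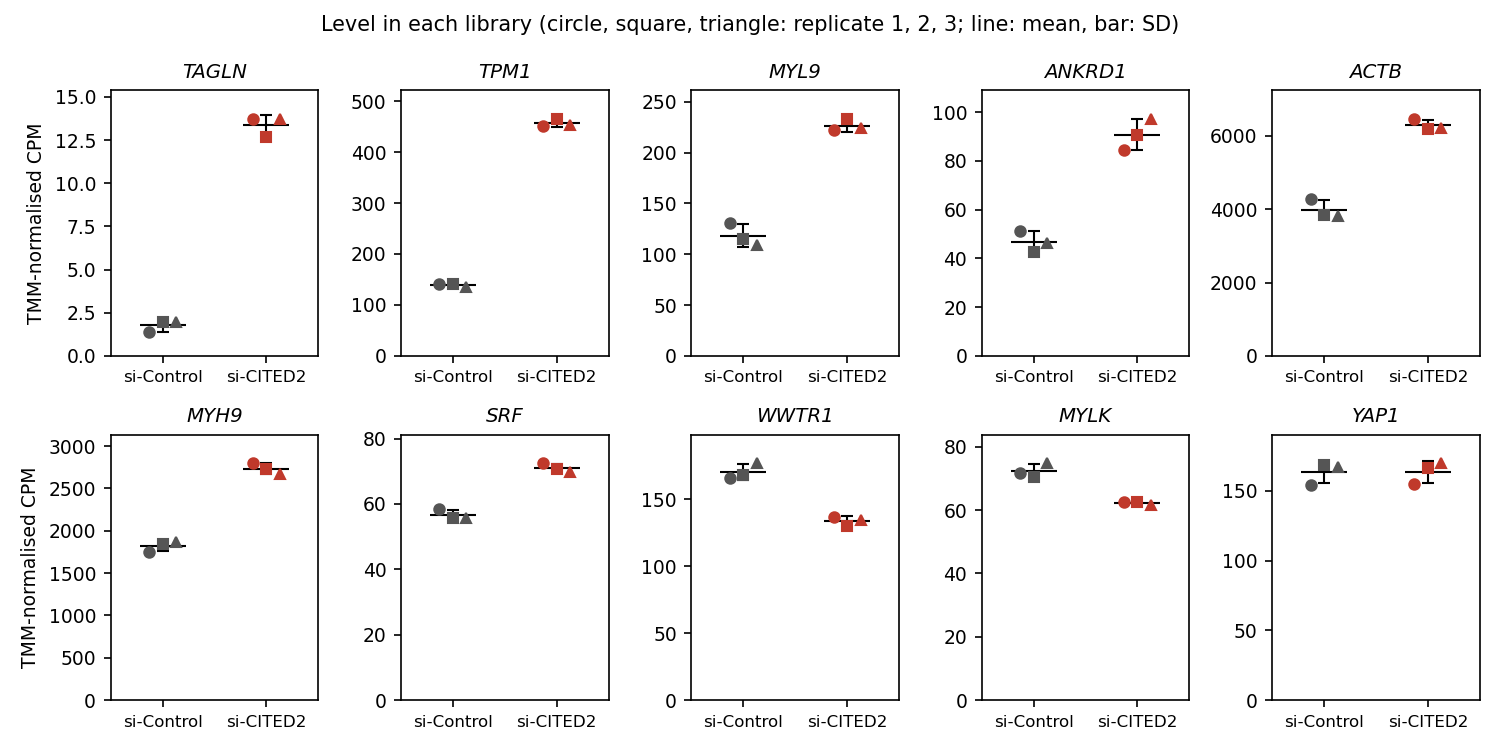
TMM-normalised CPM (y axis, from 0) of 10 members in each of the 6 libraries, si-Control in grey and si-CITED2 in red, with the symbol giving the replicate, the line the mean and the bar the SD of 3 libraries. The groups overlap in YAP1 and are apart in every other gene shown. Of these, WWTR1 and MYLK are lower in si-CITED2 and the rest are higher.

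The composition of each protein family was then compared as the share of the family's counts held by each gene, a measure that does not depend on the scaling of the libraries. With 3 libraries against 3, the exact two-sided permutation test cannot give a p below 0.1, and 21 shares were compared, so the shares are given with whether their groups overlapped. The p of 0.1 became 0.117 after Benjamini-Hochberg adjustment over the 21. Within the tropomyosins, TPM1 held 4.47%, 4.72% and 4.54% of the family's counts under si-Control and 11.9%, 11.8% and 11.5% under si-CITED2. TPM4 held 20.8% ± 0.488 in si-Control and 24.9% ± 0.921 in si-CITED2 (SD, n = 3), while TPM3 held 74.4% ± 0.537 in si-Control and 63.2% ± 1.10 in si-CITED2. Each of these 3 shares separated the groups (exact permutation p = 0.1 each), and that of TPM2 did not (0.168% ± 0.0206 in si-Control and 0.166% ± 0.0266 in si-CITED2, p = 1). The tropomyosin pool of the si-CITED2 libraries thus held a larger share of the isoform genes TPM1 and TPM4 and a smaller share of TPM3.

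Among the heavy chains, MYH9 held 79.8% ± 0.332 in si-Control and 86.5% ± 0.485 in si-CITED2, the remainder being MYH10. Among the regulatory light chains, MYL9 held 8.42% ± 0.353 in si-Control and 13.1% ± 0.789 in si-CITED2, while MYL12A held 44.4% ± 0.514 in si-Control and 41.1% ± 0.686 in si-CITED2 and MYL12B 47.2% ± 0.788 in si-Control and 45.8% ± 0.104 in si-CITED2. FLNA held 72.3% ± 0.290 in si-Control and 76.5% ± 0.351 in si-CITED2, the rest being FLNC. ACTB held 60.2% ± 1.61 in si-Control and 63.6% ± 0.296 in si-CITED2, and ACTG1 nearly all of the rest. YAP1 and WWTR1 had close to equal counts in si-Control, with YAP1 at 48.2%, 50.1% and 48.6%, and YAP1 held the larger share in every si-CITED2 library, at 53.1%, 56.2% and 55.8%. In the calponin family TAGLN held 0.165% ± 0.0384 in si-Control and 0.960% ± 0.0408 in si-CITED2, TAGLN2 68.9% ± 0.0849 in si-Control and 71.1% ± 0.383 in si-CITED2 and CNN3 11.7% ± 0.211 in si-Control and 9.51% ± 0.714 in si-CITED2. None of the shares in this paragraph overlapped between the groups (exact permutation p = 0.1 each), whereas the share of CNN2 did (19.3% ± 0.133 in si-Control and 18.4% ± 0.954 in si-CITED2, p = 0.4).

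**Figure D3:**
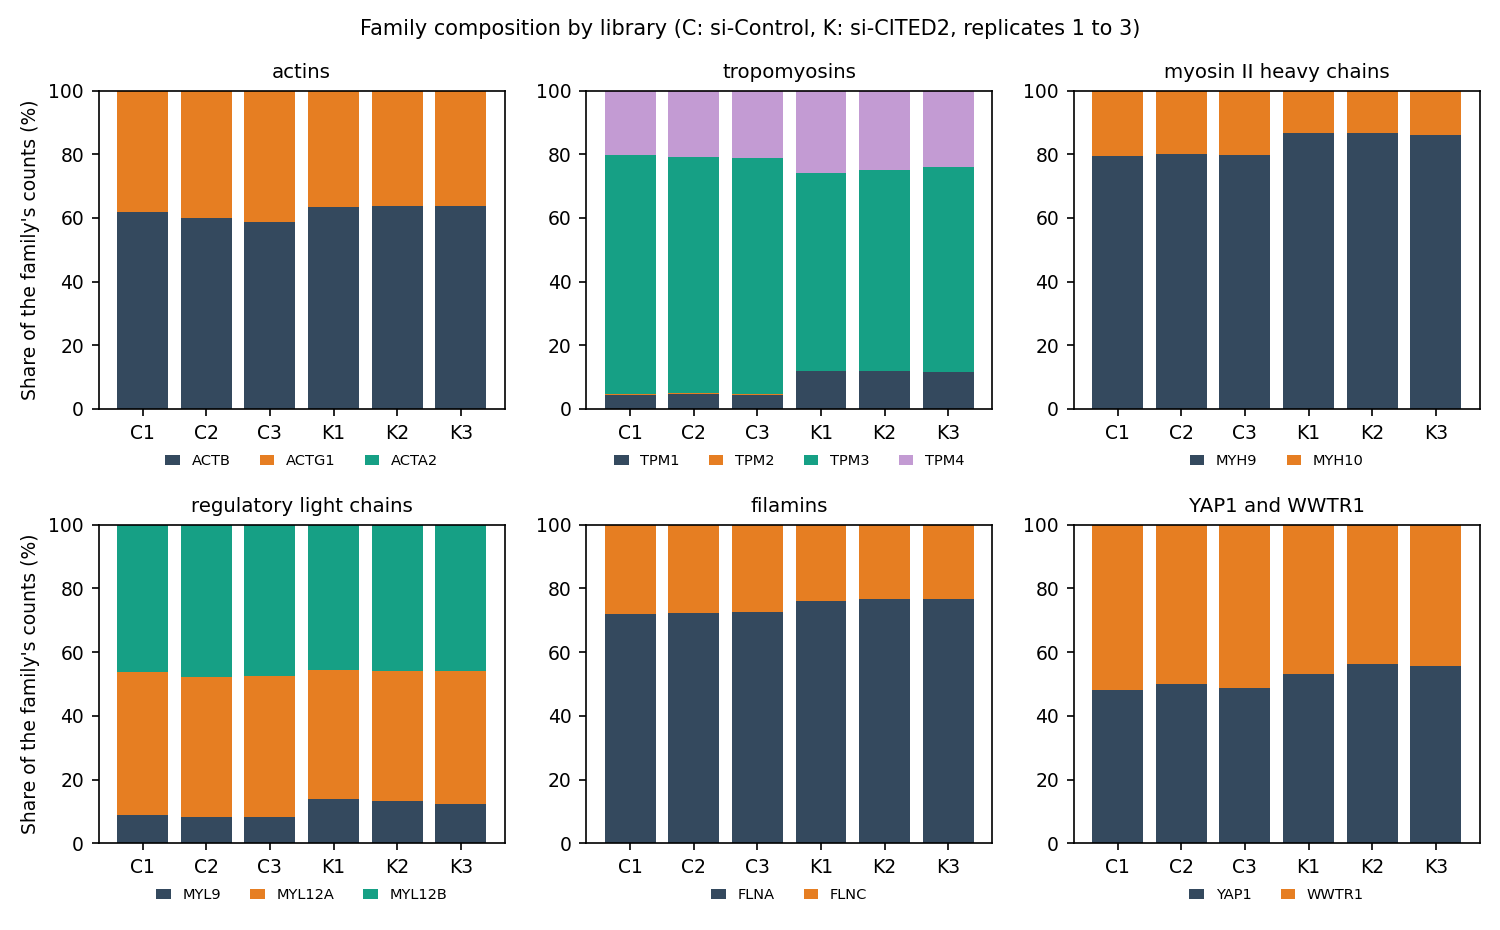
Share of the summed counts of each family (y axis, %) held by each gene in the 6 libraries (C1 to C3, si-Control; K1 to K3, si-CITED2). The shares of TPM1, MYH9, MYL9, FLNA and YAP1 are larger in every si-CITED2 library than in any si-Control library.

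Levels were set in order per kilobase of exon (union of the protein-coding transcripts of GENCODE 29, which underestimates genes with many alternative exons such as TPM1). In si-CITED2, ACTB led at 3159 CPM per kilobase, followed by ACTG1 at 1506, and then by TPM3 at 513, TAGLN2 at 509 and MYL12A at 504, which lie within each other's spread. MYL12B (411), MYL6 (372) and MYH9 (354) came next. MYL9, at 80.3 CPM per kilobase, and TPM1, at 54.7, remained well below these abundant members, and TAGLN, MYLK, TPM2, CALD1 and ACTA2 were all under 6. The genes with the largest fold changes were thus not the most abundant ones, with TAGLN at 5.57 CPM per kilobase after the rise.

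The wider pathways were examined with 5 lists of further genes, 89 in all, of which 86 passed the filter on low counts, 35 were called higher and 5 lower. The background for these lists is 9.36% higher and 8.09% lower over all genes tested. For genes with a mean log2 CPM of at least 6 it is 13.8% and 14.8%. In 3 of the lists edgeR called 0 genes lower, as did DESeq2; at an unadjusted p under 0.05 edgeR gave 0 lower genes in the MRTF and SRF list, 0 in the Hippo list and 1 in the focal adhesion list. Genes named as not called, and MYOF, F3 and CFL1, were picked after their values were seen. In the MRTF and SRF list, 5 of 13 genes were higher and 0 lower (median log2 fold change 0.11). MKL1, the gene of the SRF coactivator MRTF-A, was at 24.3, 24.8 and 30.7 CPM in si-Control and 55.6, 54.4 and 51.1 CPM in si-CITED2 (log2 fold change 1.02 ± 0.081, adjusted p = 1.10e-07). Its paralogue MKL2 was not called (-0.14, adjusted p = 0.202). ELK3, a ternary complex factor that binds beside SRF, rose from 98.8 ± 2.39 CPM to 162 ± 2.51 CPM (log2 fold change 0.71 ± 0.048, adjusted p = 1.70e-08), whereas ELK1 (0.032) and ELK4 (0.058) were not called. The SRF targets TGFB1I1 (0.63), SMTN (0.37) and CSRP1 (0.30), which code for proteins of adhesions and actin bundles, rose as well. TGFB1I1 lost its call without si-CITED2 replicate 2 (0.58). MYOCD, the muscle-specific coactivator, did not pass the filter.

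In the Hippo list 1 of 14 genes was higher and 0 lower (median log2 fold change 0.088), a share near the background of all genes. The gene was VGLL4, which competes with YAP for TEAD (0.36, adjusted p = 0.00413). The kinases STK3 (-0.065), STK4 (-0.12) and LATS1 (-0.042) and the upstream regulator NF2 (0.14) were not called. Further YAP-TEAD targets were split, with 8 of 19 higher, 3 lower and a median of 0.052. CTGF, a matricellular protein and the most used readout of YAP, was at 19.4, 20.03 and 21.3 CPM in si-Control and 54.6, 58.1 and 55.7 CPM in si-CITED2 (log2 fold change 1.48 ± 0.065, adjusted p = 6.68e-11). CYR61, its relative, rose from 214 ± 13.3 CPM to 372 ± 11.3 CPM (log2 fold change 0.80 ± 0.053, adjusted p = 1.29e-08). CCDC80 (0.70), IGFBP3 (0.70) and RBMS3 (0.68) followed. FJX1 fell (-0.42, adjusted p = 0.00294), and so did MYOF, a membrane repair protein (-0.40, adjusted p = 2.14e-05). F3, tissue factor, fell by 0.216 on the log2 scale and, of the fits that left out a library, kept its call in that without si-Control replicate 1 (-0.25 to -0.18 over the others). The F3 call was also lost with the replicate number as a block (adjusted p = 0.0533) and in DESeq2 (adjusted p = 0.0583). AXL, a receptor kinase often used as a YAP target, was at 514 ± 15.0 CPM and 512 ± 7.65 CPM (-0.0075, adjusted p = 0.938).

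In the list of small GTPases, kinases and actin turnover proteins, 12 of 25 genes were higher and 2 lower (median log2 fold change 0.17). MSN, moesin, which ties actin to the membrane, was at 423, 415 and 417 CPM in si-Control and 638, 608 and 618 CPM in si-CITED2 (log2 fold change 0.57 ± 0.045, adjusted p = 1.03e-07), while its relatives EZR (-0.14) and RDX (-0.029) were not called. TMSB4X, which buffers monomeric actin (0.52), ARPC5, a subunit of the branching ARP complex (0.46), CAPZB, which caps filament ends (0.43), and LIMK1, the kinase that inhibits cofilin (0.38), also rose. RHOB rose by 0.35, a call lost without si-Control replicate 1 or 3 or si-CITED2 replicate 1 or 2 (0.30 to 0.35). The genes called lower were DIAPH3, a formin that elongates filaments (-0.32, adjusted p = 5.66e-04), and CFL2 (-0.21, adjusted p = 0.0101), a cofilin whose paralogue CFL1 rose (0.21, not called without si-CITED2 replicate 2, where it was 0.20). ROCK1 (0.099) and ROCK2 (0.10), the kinases that act on the light chains beside MYLK, were not called.

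The further focal adhesion genes gave 9 higher and 0 lower of 15, with a median of 0.30. FERMT2, a kindlin, which activates integrins with talin, rose from 159 ± 5.60 CPM to 251 ± 3.46 CPM (log2 fold change 0.66 ± 0.048, adjusted p = 3.84e-08). LIMS1 (0.40), VASP (0.36), PTK2, the focal adhesion kinase (0.35), and LPP (0.34) rose by less. ENAH (-0.048), TNS3 (-0.15) and SORBS3 (-0.037) were not called.

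**Figure D4:**
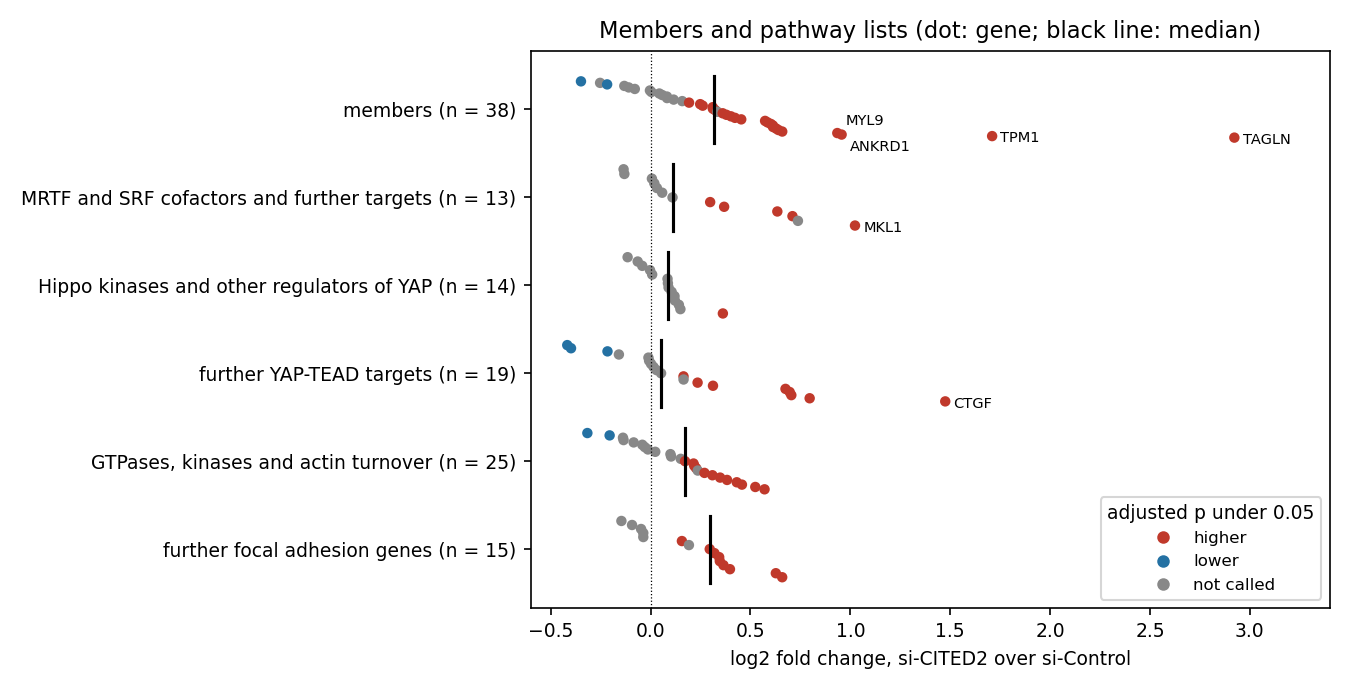
Log2 fold change (x axis, si-CITED2 over si-Control) of each gene of the members and of the 5 pathway lists that passed the filter, sorted within a list; the black line is the list's median, and red, blue and grey mark higher, lower and not called at an adjusted p under 0.05. The medians run from 0.052 for further YAP-TEAD targets to 0.32 for the members, and TAGLN, TPM1, CTGF and MKL1 lie farthest to the right.

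Several members are best known from muscle or fibroblasts, so markers of other cell types were read beside them. Of 8 muscle markers 6 passed the filter and 0 were called by edgeR or DESeq2, with 1 (LMOD1) at an unadjusted p under 0.05 in edgeR; their summed level was 11.0 to 18.8 CPM in si-Control and 13.7 to 14.6 CPM in si-CITED2, and DES was at 0.0617 ± 0.0791 CPM and 0.0651 ± 0.0802 CPM. Of 8 fibroblast markers only COL1A1 passed the filter (0.32, adjusted p = 0.105). The summed fibroblast level was 5.66 to 6.04 CPM against 7.26 to 7.67 CPM, DCN and FAP had 0 counts in si-Control, and LUM had 0 in si-CITED2. Of 6 blood markers only CD68, also a lysosomal protein of other cells, passed the filter, and it was not called. The epithelial markers of the line were present: KRT8 was at 771 ± 30.9 CPM in si-Control and 912 ± 44.9 CPM in si-CITED2 and rose (0.24, adjusted p = 0.00260). KRT18 was called higher (0.18, adjusted p = 0.0267), a call lost without si-Control replicate 2 or 3 or si-CITED2 replicate 1 (0.13 to 0.19), and KRT19 was not called (0.077, adjusted p = 0.397). CDH1, E-cadherin, fell from 139 ± 12.1 CPM to 97.4 ± 3.85 CPM (log2 fold change -0.52 ± 0.063, adjusted p = 1.67e-05), and EPCAM fell as well (-0.33, adjusted p = 0.00110). The part of these shifts in the values of the members was not tested.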

How the data were processed

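RNA-seq was performed on PC3 cells with a SMARTer mRNA-seq kit after Trizol extraction, 3 libraries per siRNA. The replicate numbers are those of the labels, the study describes independent experiments, and p-values measure the spread between these libraries. Each library's file, as deposited by the authors, holds unnormalised read counts by gene symbol. The submitters' processing notes name TopHat, edgeR and hg19, while the counting program, its annotation and its use of strand are not given in the sources used here. Of several rows of a symbol (25737 rows, 24462 symbols), that with the most counts was kept.

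Counts were tested with edgeR 4.0.16 in R 4.3.3 (TMM, filterByExpr, glmQLFTest, two-sided, Benjamini-Hochberg adjustment over 16314 genes, called at an adjusted p under 0.05). The SE was taken from the F statistic. Per-library values are TMM-normalised CPM. The common biological coefficient of variation was 0.0614. Exon lengths and gene positions came from GENCODE 29 (GRCh38), and promoters from RefSeq. Scripts were tested on simulated data. Family shares were compared by the exact permutation test (scipy 1.17.1).

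The members and lists were chosen with earlier results of these data known. All members are accounted for, and from each pathway list up to 6 called genes with the largest changes were to be named. Of these, 1 is not reported here. Alternatives were DESeq2 1.42.0, RLE factors, no TMM, other filters (none, or at least 10 counts in every library), summed rows, a replicate block, a 1.5-fold minimum and leaving out each library.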

Additional observations from a re-analysis of the deposited data

How the results depend on the processing

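Over 13 alternatives, 472 of 494 log2 fold changes of the 38 tested members kept their direction and their side of the threshold. MYL12A lost its call in 6, and TPM3, TLN1 and TEAD4 gained theirs in 7. The 9 that changed sign were in genes that were not called: leaving out 1 library gave -0.22 to 0.11 for ACTA2, -0.035 to 0.022 for FLNC and -0.036 to 0.041 for YAP1, and YAP1 was at -0.014 without TMM. With a 1.5-fold minimum, 11 members were higher and 0 lower, and of all genes 489 and 127. CITED2 stood at 0.17 to 0.29 when 1 library was left out and at 0.22 without TMM, where its call was lost. Scaling without TMM moved the median of all genes to -0.018. Same-numbered libraries did not deviate together (correlations of -0.042, 0.054 and -0.017), and 2 of the 6 correlated best with their own number. With the replicate number as a block, 22 members were higher and 2 lower, MYL12A being lost (0.19, adjusted p = 0.0728). Of the called pathway genes, BCAR1, DOCK5 and F3 were lost with the block (adjusted p = 0.0720, 0.0728 and 0.0533). Levels near 3 counts, as in CNN1, could not be compared at this depth.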
